A study of Mus musculus with 12 samples.

Results

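Genes that glucocorticoids are known to regulate, together with the receptor and the enzymes that handle the hormone, were followed in the duodenum of mice lacking Akp3 and of wild-type mice, with and without the pentapeptide IIAEK. The 10 genes were Tsc22d3, Ddit4, Sgk1, Fkbp5, Klf9, Zbtb16, Errfi1, Nr3c1, Hsd11b1 and Hsd11b2. They were taken by name, with every probe whose accession maps to them, and were picked with the knockout against wild-type comparison under vehicle already known. They had 14 probes, of which 13 passed the filter on dim signal, so that 9 of the 10 genes entered the fit, among 15583 named genes and 26107 features in all.

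Total RNA of the duodenum of male mice, 7 weeks of age by the design, was hybridised to 12 one-colour Agilent arrays in 4 groups of 3. The groups were wild type given vehicle, wild type given IIAEK, Akp3-/- given vehicle and Akp3-/- given IIAEK. All mice received their treatment by mouth for 14 days by the titles and the design, and were fasted for 8 h before the duodenum was taken. The vehicle was sodium carboxymethylcellulose at 5 g/L, and IIAEK was given in it at 600 mg/kg body weight each day. The labels conflict on the length of dosing: the source labels of IIAEK samples give it in weeks, and the days of the titles and the design are used here. Akp3 encodes an intestinal alkaline phosphatase of the duodenum. The strain background and the making of the Akp3-/- line are not stated in the labels. Each level is a log2 processed intensity minus that array's 75th percentile, so that 0 is the 75th percentile of the array. A difference of 1 on this scale is a doubling. The labels number 3 samples in a group without naming the animals, so the p-values measure only the spread between these samples, which may be technical.

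Glucocorticoids cross the cell membrane and bind the receptor encoded by Nr3c1, which is held by chaperones in the cytoplasm, moves to the nucleus and binds DNA at response elements. Its targets include feedback inhibitors, growth regulators and ion transport kinases, and in the intestine the hormone is known for its part in enterocyte maturation and in sodium uptake. The gut epithelium also makes corticosterone itself and interconverts active and inactive forms through the 11-beta-hydroxysteroid dehydrogenases.

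Promoter windows are shown for the 4 genes with a probe on which all wild-type vehicle arrays lay above the others, since a response element lies in one of these windows. The RefSeq windows (GRCm38.p6, 250 bases before to 50 after a start site) covered 7 of the 10 genes with 15 windows. The full element was searched as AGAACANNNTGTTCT and the single site as AGAACA, on both strands; the full element contains the single site on each strand. The full element occurred in 3 of 32851 windows of all genes, 0.00913%, and 1 of the 3 belongs to Sgk1. The single site occurred in 19.0% of all windows. Sgk1 and Tsc22d3 have several windows, and 1 of each is printed: the Sgk1 window with the full element and the Tsc22d3 window with the single site. The sequences run 5′ to 3′ on the gene's strand, with capitals marking the searched motifs: these sites, the E-box CACGTG (7.15% of all windows) and the GC box GGGCGG (35.7%).
Sgk1, chr10:21993640-21993939, plus strand: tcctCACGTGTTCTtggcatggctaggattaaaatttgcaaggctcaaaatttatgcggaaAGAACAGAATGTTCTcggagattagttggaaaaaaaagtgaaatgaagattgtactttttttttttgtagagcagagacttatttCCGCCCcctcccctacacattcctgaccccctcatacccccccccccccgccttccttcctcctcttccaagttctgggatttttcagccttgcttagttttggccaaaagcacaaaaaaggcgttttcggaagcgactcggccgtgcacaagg
Tsc22d3, chrX:140600473-140600772, minus strand: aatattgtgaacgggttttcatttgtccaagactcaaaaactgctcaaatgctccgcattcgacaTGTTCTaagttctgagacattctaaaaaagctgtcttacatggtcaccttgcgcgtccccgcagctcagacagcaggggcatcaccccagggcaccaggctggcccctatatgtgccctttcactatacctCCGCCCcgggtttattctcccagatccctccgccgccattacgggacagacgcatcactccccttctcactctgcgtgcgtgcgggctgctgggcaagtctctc
Ddit4, chr10:59951721-59952020, minus strand: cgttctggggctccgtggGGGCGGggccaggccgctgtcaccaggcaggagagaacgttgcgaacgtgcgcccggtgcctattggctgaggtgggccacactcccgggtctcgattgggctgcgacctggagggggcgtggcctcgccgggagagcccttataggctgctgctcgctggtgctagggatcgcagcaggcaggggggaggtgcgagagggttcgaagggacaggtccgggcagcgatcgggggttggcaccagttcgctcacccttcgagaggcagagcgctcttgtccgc
Fkbp5, chr17:28486100-28486399, minus strand: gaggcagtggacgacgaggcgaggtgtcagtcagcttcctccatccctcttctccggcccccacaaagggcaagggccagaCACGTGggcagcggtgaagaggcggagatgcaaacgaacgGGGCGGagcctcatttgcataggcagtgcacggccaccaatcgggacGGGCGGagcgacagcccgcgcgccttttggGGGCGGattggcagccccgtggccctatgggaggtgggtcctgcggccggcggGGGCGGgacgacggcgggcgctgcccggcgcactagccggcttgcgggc

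In the Sgk1 window the full element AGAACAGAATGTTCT lies at -189 from the start site. Another single site, TGTTCT, lies at -242 and overlaps the E-box. The Tsc22d3 window holds 1 single site, at -185. Other windows of Sgk1 (2 of its 6) hold a single site each, and the other 2 windows of Tsc22d3 hold none. These letters were not found in the Ddit4 and Fkbp5 windows, which hold 1 and 4 GC boxes, nor in the windows of Klf9, Errfi1 and Hsd11b1. One Errfi1 window carries the cAMP response element TGACGTCA, present in 1.79% of all windows, and a TATAAA sequence, present in 13.6%. Which start site gives the transcript that each probe reads was not determined.

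Before the members, some facts of the arrays bear on what follows. Per array, 55.9% to 64.0% of probes had a signal well above background, and no spot was saturated. Akp3 lay between 1.05 and 2.72 on the 6 wild-type arrays and between -4.90 and -3.80 on the 6 knockout arrays, as labelled. The enterocyte markers (10 of 10 measured) had a mean level of 7.06 to 7.66 on all arrays. Markers of stomach and Brunner gland mucous cells (9 of 10 measured) split the arrays in 6 at 3.25 to 4.82 and 6 at -2.69 to -1.24. The former comprised the whole wild-type vehicle group, wild-type IIAEK replicate 3, knockout vehicle replicate 1 and knockout IIAEK replicate 3. Exocrine pancreas markers (12 of 12 measured) were at 1.84 in wild-type vehicle replicate 1 and at 7.17 to 9.40 on the other arrays. In whole tissue, fewer cells of a type and less RNA per cell cannot be told apart.

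Tsc22d3, which encodes GILZ, an inhibitor of inflammatory transcription factors, was highest on the wild-type vehicle arrays. Its levels were 4.59, 4.31 and 4.25 there, 3.95, 3.45 and 3.80 in IIAEK-treated wild type, 3.02, 3.31 and 3.49 in vehicle-treated knockout, and 3.86, 3.75 and 3.15 in IIAEK-treated knockout. All 3 wild-type vehicle arrays lay above all 9 others, the nearest being wild-type IIAEK replicate 1. The other probe of the gene also put wild-type vehicle highest: 3.1, 3.01 and 2.82, against 1.83 to 2.63 on the 9 other arrays. The levels of both probes correlated at r = 0.97 over the 12 arrays.

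Ddit4, an inhibitor of mTORC1 signalling that also responds to energy and oxygen stress, was likewise highest in wild type under vehicle, at 4.15, 4.10 and 3.92. It stood at 3.73, 2.29 and 3.21 in IIAEK-treated wild type, at 2.21, 3.15 and 2.49 in vehicle-treated knockout, and at 3.28, 3.39 and 2.66 in IIAEK-treated knockout. The 3 wild-type vehicle arrays again lay above the 9 others, and the remaining groups overlapped each other. Their SD within a group was 0.73, 0.48 and 0.40, against 0.12 in wild-type vehicle (n = 3 each).

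Sgk1 encodes a kinase that raises sodium transport, and it is a target of both the glucocorticoid and the mineralocorticoid receptor. Its levels were 5.30, 5.41 and 5.07 in vehicle-treated wild type, 4.35, 3.61 and 4.58 in IIAEK-treated wild type, 4.35, 3.21 and 3.22 in vehicle-treated knockout, and 4.68, 4.33 and 2.36 in IIAEK-treated knockout. Here too the wild-type vehicle arrays lay above the other 9, of which the highest was at 4.68. Sgk1 was the most variable of the members: its SD within groups, pooled over the 4, was 0.76, at percentile 94.2 of all features. Its lowest array, knockout IIAEK replicate 3, was 1 of the 6 with high stomach-type markers and also had the highest smooth muscle marker level of the 12, at 4.10 against 2.38 to 3.44. That array was also the highest for fibroblast (3.49) and endothelium (0.17) markers and the lowest for enterocyte markers (7.06). With the stomach-type and pancreas marker levels as covariates, the Sgk1 difference between genotypes under IIAEK was -0.41 against -0.39 without them. The part of the smooth muscle, fibroblast, endothelium and enterocyte levels in the Sgk1 values was not tested.

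Fkbp5 encodes a co-chaperone that lowers the receptor's affinity for hormone and is a classic feedback target, and its probes did not show the same picture. On its brighter probe the levels were 3.73, 3.79 and 4.26 in vehicle-treated wild type, 2.66, 3.41 and 3.81 in IIAEK-treated wild type, 3.66, 3.67 and 3.48 in vehicle-treated knockout, and 4.33, 4.05 and 3.50 in IIAEK-treated knockout. No group stood clear of the other 3. On its dimmer probe, which has the same accession and was well above background on all 12 arrays, the levels were 1.46, 1.26 and 1.0 in vehicle-treated wild type. They were 0.53, -0.80 and 0.17 in IIAEK-treated wild type, -0.17, -0.41 and -0.79 in vehicle-treated knockout, and 0.86, 0.49 and -0.86 in IIAEK-treated knockout, so that wild-type vehicle lay above the 9 others.

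Over the 12 arrays the 2 Fkbp5 probes correlated at r = 0.38. The dimmer one correlated with Tsc22d3 at r = 0.89 and the brighter one at r = 0.23; with each group's mean removed these were 0.74 and 0.08. The points share arrays and groups, and are given as a description. Which transcripts each probe reads is not given in the files used here.

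**Figure D1:**
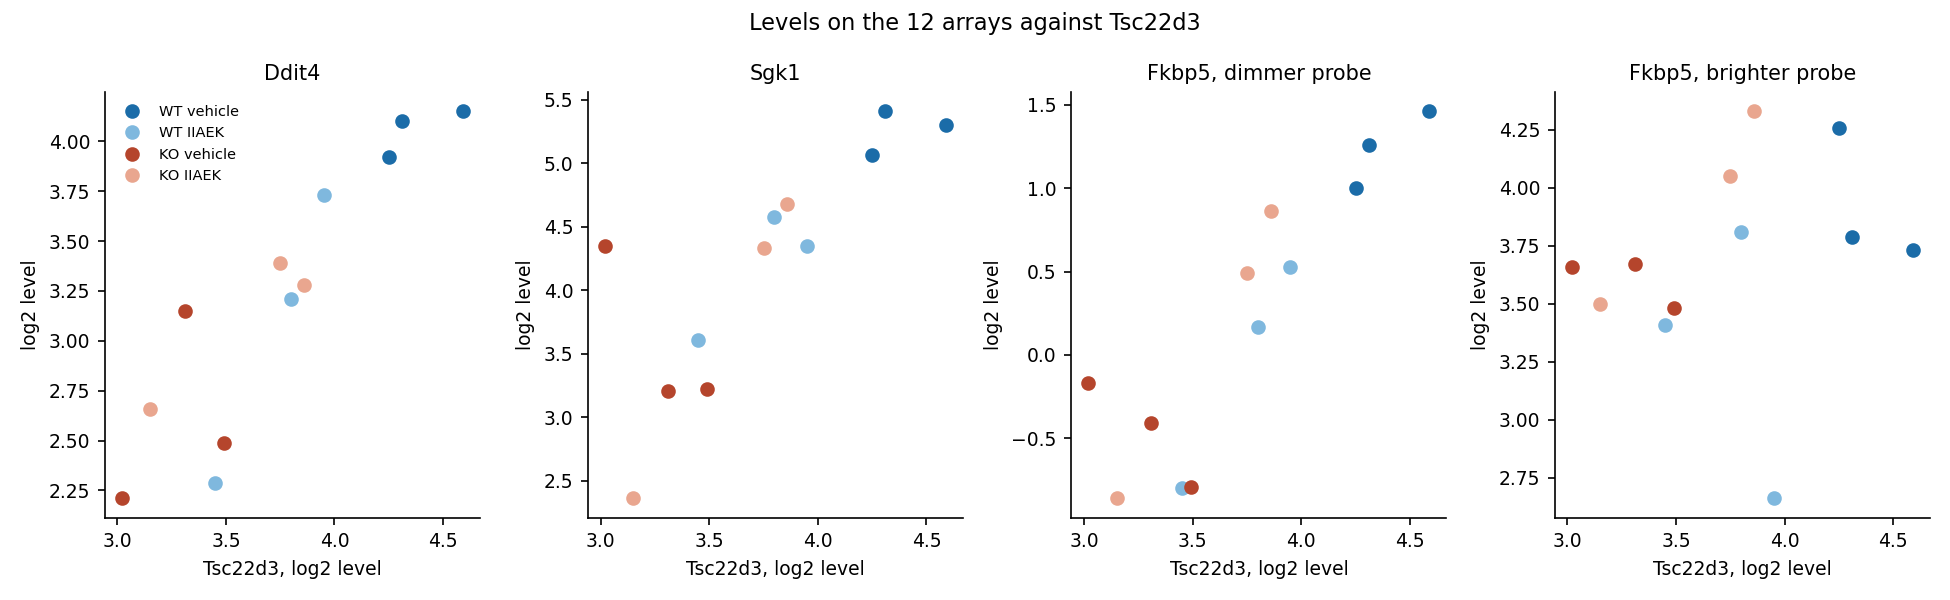
Log2 levels of Ddit4, Sgk1 and the 2 Fkbp5 probes (y axes) against Tsc22d3 (x axes) on the 12 arrays, 1 point per array, coloured by group. Ddit4 (r = 0.91), Sgk1 (r = 0.81) and the dimmer Fkbp5 probe (r = 0.89) follow Tsc22d3 with the wild-type vehicle arrays at the upper right, whereas the brighter Fkbp5 probe (r = 0.23) does not.

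Klf9, a zinc finger repressor induced by glucocorticoids and thyroid hormone, had 1.42, 1.61 and 1.38 in vehicle-treated wild type and 1.35, 1.15 and 1.23 in vehicle-treated knockout. Under IIAEK it had 1.37, 1.01 and 1.70 in wild type and 1.52, 1.31 and 1.09 in knockout. Its vehicle groups lay apart by the narrow gap between 1.38 and 1.35, and its IIAEK groups overlapped. Errfi1, which encodes a feedback inhibitor of the EGF receptor family, had 3.74, 3.80 and 3.42 in vehicle-treated wild type and 3.57, 3.71 and 3.19 in vehicle-treated knockout. It had 3.88, 3.44 and 3.76 in IIAEK-treated wild type and 3.86, 3.68 and 2.90 in IIAEK-treated knockout, and the groups overlapped throughout.

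Zbtb16, a transcription factor of innate-like lymphocytes that glucocorticoids induce in several tissues, had a pattern of its own. The brighter probe gave 1.93, 1.95 and 2.12 in vehicle-treated wild type, 1.38, 1.36 and 2.22 in IIAEK-treated wild type, 1.86, 0.87 and 1.55 in vehicle-treated knockout, and 1.03, 0.90 and 0.84 in IIAEK-treated knockout. The 3 knockout IIAEK arrays lay below the 3 wild-type IIAEK arrays, and knockout vehicle replicate 2 was as low as they were. The dimmer probe was well above background on 7 of 12 arrays, 3 of wild-type vehicle, 1 of wild-type IIAEK, 2 of knockout vehicle and 1 of knockout IIAEK, and correlated with the brighter at r = 0.87.

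**Figure D2:**
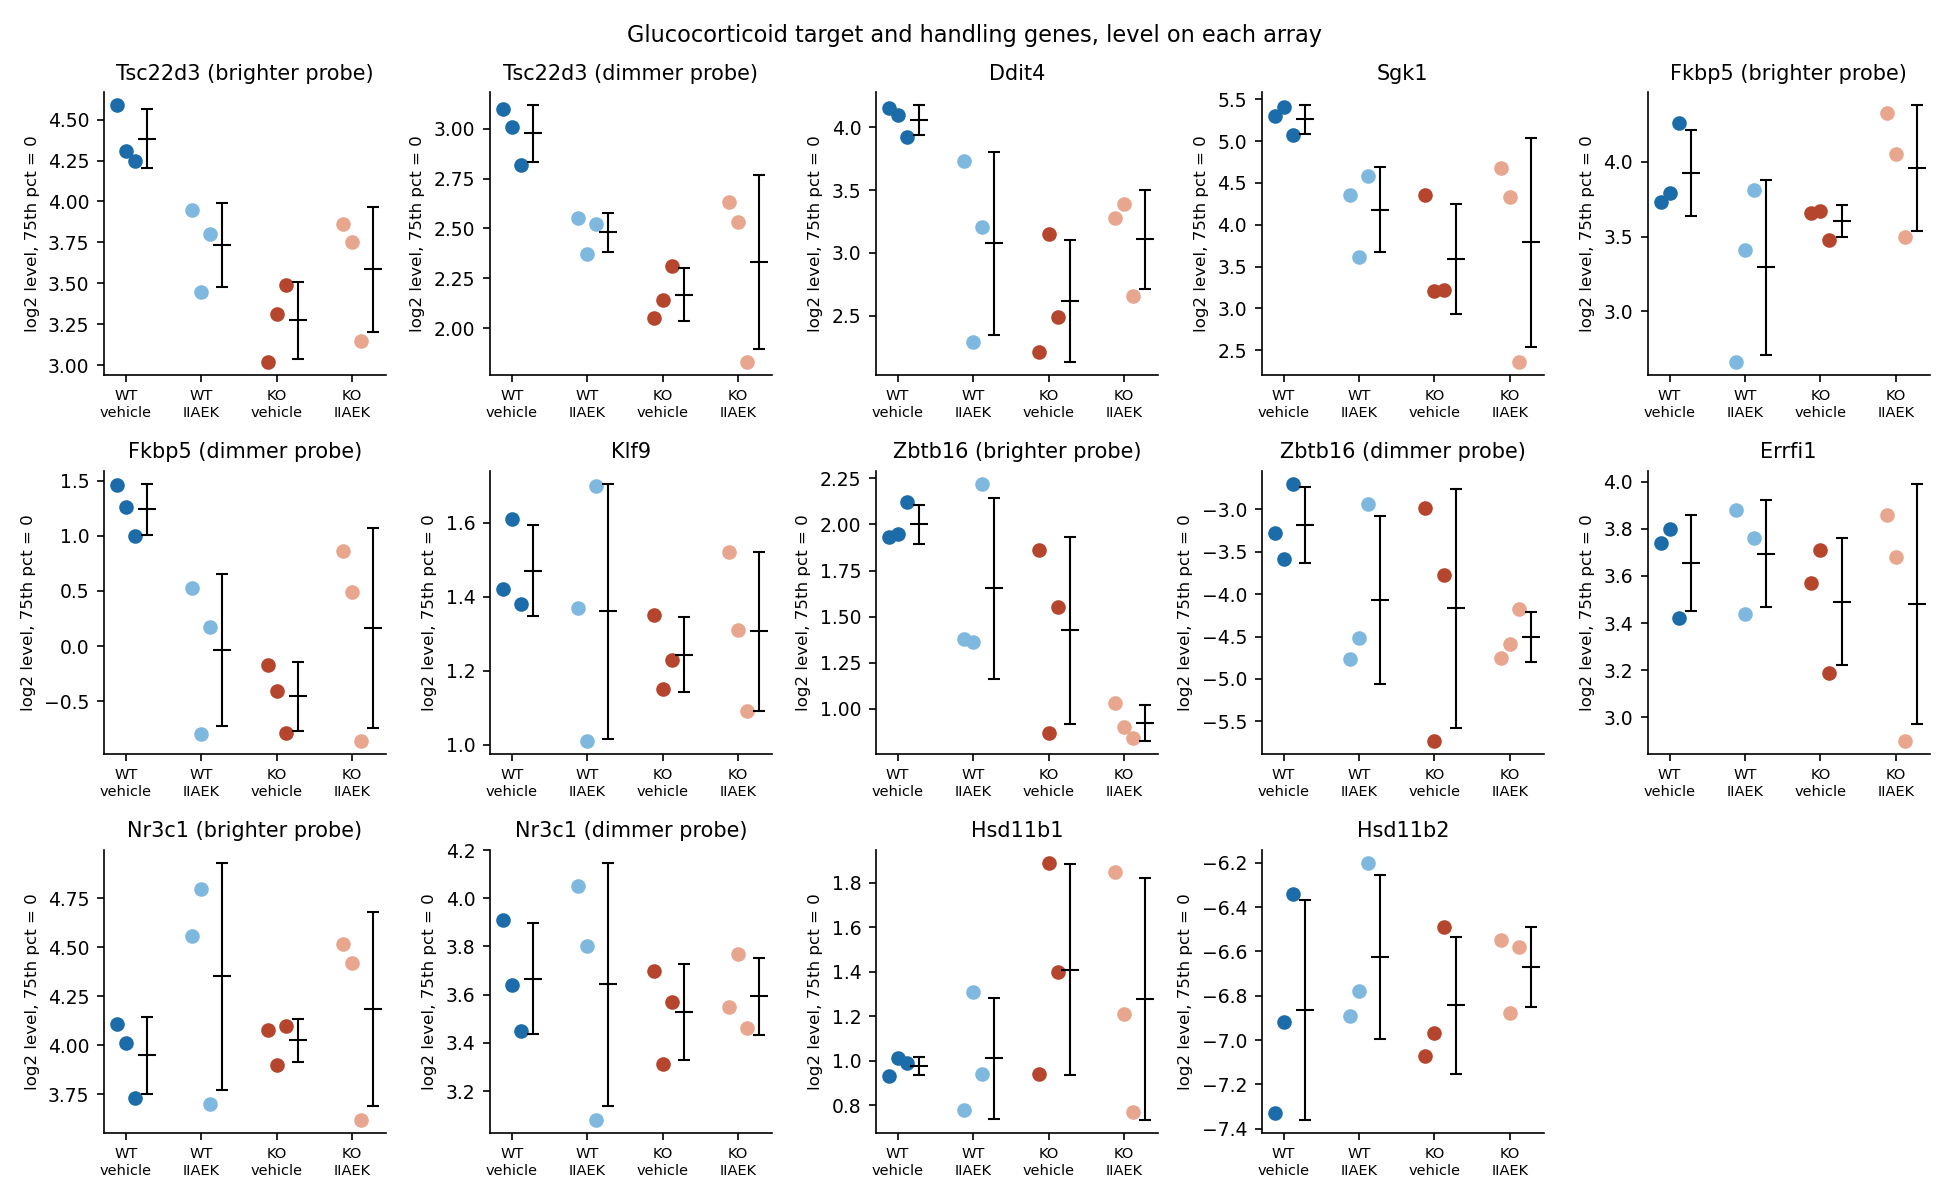
Log2 level of each member probe on each array (y axis, 0 is the array's 75th percentile, scale set per panel) in the 4 groups; points are arrays and black marks the mean ± SD (n = 3). In the panels for Tsc22d3, Ddit4, Sgk1 and the dimmer Fkbp5 probe all 3 wild-type vehicle points lie above the 9 others, and Hsd11b2 was nowhere well above background.

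For the receptor gene Nr3c1 no group stood clear of the others. Its levels were 4.11, 4.01 and 3.73 in vehicle-treated wild type, 4.56, 4.80 and 3.70 in IIAEK-treated wild type, 4.08, 3.90 and 4.10 in vehicle-treated knockout, and 4.52, 4.42 and 3.62 in IIAEK-treated knockout. The lowest arrays of both IIAEK groups were those with high stomach-type markers. In vehicle-treated knockout the array with high stomach-type markers, replicate 1, was at 4.08, between the 3.90 and 4.10 of the others. Over the 12 arrays Nr3c1 correlated with the level of those markers at r = -0.77. It did so likewise with immediate early genes (-0.85), endothelium markers (-0.80) and smooth muscle markers (-0.70). In the other direction it correlated with genes for hormone synthesis and handling (0.66) and enterocyte markers (0.52). The part of each list in the Nr3c1 level was not tested. With the stomach-type and pancreas marker levels as covariates, IIAEK minus vehicle in wild type was 0.19 ± 0.20 (SE) for Nr3c1, against 0.40 ± 0.29 without them, and knockout minus wild type under vehicle was -0.17 ± 0.21 against 0.07 ± 0.29. The dimmer probe of the gene lay between 3.08 and 4.05 and correlated with the brighter at r = 0.70. On the dimmer probe, without covariates, IIAEK minus vehicle in wild type was -0.02 ± 0.23. Knockout minus wild type under vehicle was -0.14 ± 0.23 on it.

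Hsd11b1, which regenerates active hormone inside cells, had 0.93, 1.01 and 0.99 in vehicle-treated wild type and 0.94, 1.89 and 1.40 in vehicle-treated knockout. Under IIAEK it had 0.78, 1.31 and 0.94 in wild type and 1.85, 1.21 and 0.77 in knockout. Its 3 highest values, 1.89, 1.85 and 1.40, were all in knockout mice, and the groups overlapped. Hsd11b2, which inactivates the hormone in mineralocorticoid target cells, was not well above background on any of the 12 arrays.

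Under vehicle, knockout against wild type was the comparison known when the genes were chosen, and its values are a description. The log2 difference, knockout minus wild type, was -1.67 ± 0.53 (SE) for Sgk1, which is 3.17-fold lower, -1.44 ± 0.35 for Ddit4 (2.71-fold lower) and -1.11 ± 0.21 for Tsc22d3 (2.16-fold lower). It was -0.58 ± 0.27 for Zbtb16, -0.32 ± 0.29 for Fkbp5, -0.23 ± 0.18 for Klf9 and -0.16 ± 0.25 for Errfi1. The dimmer Fkbp5 probe gave -1.70 ± 0.43. Nr3c1 differed by 0.07 ± 0.29 and Hsd11b1 by 0.43 ± 0.29. Of the 9 genes 7 were below 0, with a median of -0.32 against 0.03 for all features. None was called at an adjusted p of 0.05, where 2 of 26107 features (0.00766%) were called; 3 of the 9 had an unadjusted p under 0.05 (limma), against 3.85% of features, and nothing is read from these counts. The knockout arrays all lay below the wild-type arrays for 6 of the 9 genes and above for 0, against 5.87% and 8.5% of features.

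The arrays sat on 2 slides. Under vehicle, slide 1 held wild-type replicates 1 and 2 and knockout replicate 1, and slide 2 held the others. Within slide 1 and slide 2 the difference was -1.43 and -0.86 for Tsc22d3, -1.91 and -1.10 for Ddit4 and -1.0 and -1.86 for Sgk1. For these genes all knockout vehicle arrays lay below all wild-type vehicle arrays, so the sign within each slide was fixed beforehand. Each slide also holds a single vehicle array of 1 genotype, and the values are a description.

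Knockout against wild type under IIAEK compared 6 arrays outside the comparison known when the genes were chosen, and it was the one tested. Its SE and p-values rest on the spread within all 4 groups, the vehicle arrays included. No member passed the test (limma, adjusted p = 1 for each of the 9), where 2 features (0.00766%) passed in all. Tsc22d3 differed by -0.15 ± 0.21 (95% interval -0.62 to 0.32), Ddit4 by 0.03 ± 0.35 (-0.73 to 0.80) and Sgk1 by -0.39 ± 0.53 (-1.56 to 0.78). Klf9, Errfi1, Nr3c1 and Hsd11b1 differed by -0.21 to 0.27, each with an interval that spans 0.

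The 2 members with an unadjusted p under 0.05 went opposite ways. Zbtb16 differed by -0.73 ± 0.27 (unadjusted p = 0.0198, limma), with its interval from -1.32 to -0.14 and all 3 knockout arrays below all 3 wild-type arrays. Groups apart in that direction occurred in 2.19% of features, and the opposite direction, seen in no member, in 1.65%. The dimmer Zbtb16 probe, well above background on 1 array of each IIAEK group, gave -0.43 ± 0.65 with overlapping groups. Fkbp5 differed by 0.67 ± 0.29 on the brighter probe (unadjusted p = 0.0415, limma), with overlapping groups, and by 0.20 ± 0.43 on the dimmer one. An unadjusted p under 0.05 was found in 1.31% of all features in this comparison.

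For Sgk1 under IIAEK, 1 array decided the direction. Within slide 1, with replicates 1 and 2 of each genotype, its difference was 0.53. Slide 2 held replicate 3 of each genotype, and there knockout, at 2.36, was set against wild type, at 4.58, a difference of -2.22 between 2 single arrays. Without knockout IIAEK replicate 3 the difference over both slides was 0.32.

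**Figure D3:**
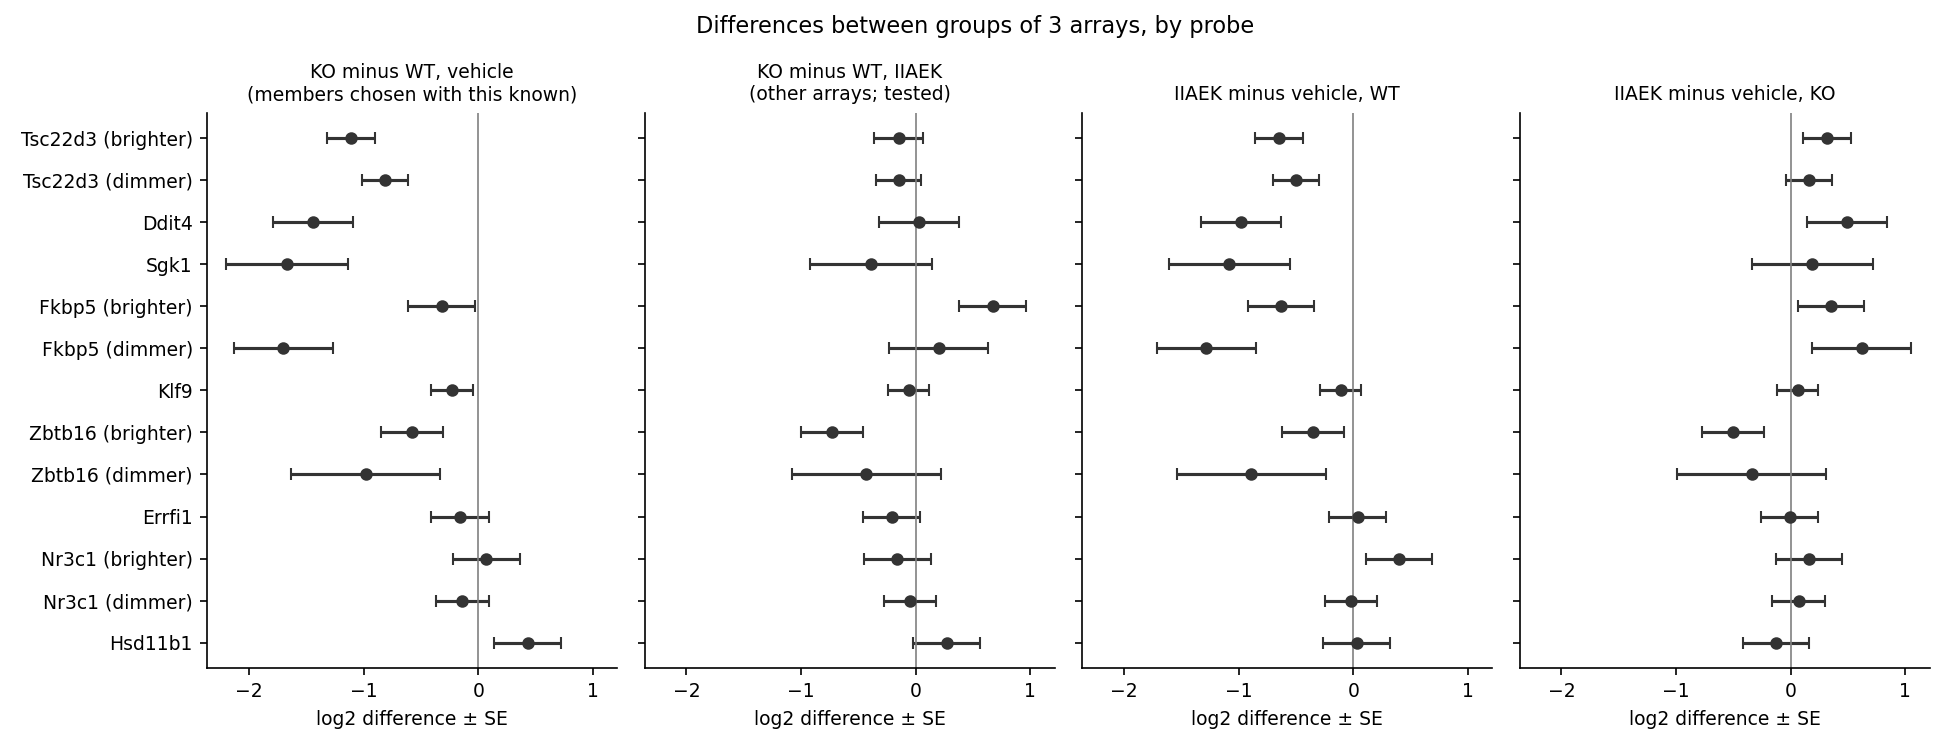
Log2 differences between groups of 3 arrays with their SE (x axes) for each member probe past the filter (y axis), in 4 panels by comparison. Under vehicle, Ddit4, Sgk1, the brighter Tsc22d3 probe and the dimmer Fkbp5 probe lie between -1.70 and -1.11, whereas under IIAEK they lie between -0.39 and 0.20. For Tsc22d3 and Fkbp5 the probe named is the one with the larger vehicle difference. The dimmer Tsc22d3 probe is at -0.81 under vehicle and -0.15 under IIAEK, and the brighter Fkbp5 probe at -0.32 and 0.67.

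The effect of IIAEK on the members shares its vehicle arrays with the comparison that led to their choice, so its values and counts are a description from which no test is read. In wild type, IIAEK minus vehicle was -0.65 ± 0.21 for Tsc22d3, -0.98 ± 0.35 for Ddit4, -1.08 ± 0.53 for Sgk1 and -0.63 ± 0.29 for Fkbp5. The dimmer Fkbp5 probe gave -1.28 ± 0.43. Zbtb16 was at -0.35 ± 0.27, Klf9 at -0.11 ± 0.18, Errfi1 at 0.04 ± 0.25, Nr3c1 at 0.40 ± 0.29 and Hsd11b1 at 0.03 ± 0.29. The IIAEK arrays lay below the vehicle arrays for 3 of the 9, which were Tsc22d3, Ddit4 and Sgk1, and above for 0, against 3.69% and 5.58% of features. In knockout, the same difference was 0.32 ± 0.21 for Tsc22d3, 0.49 ± 0.35 for Ddit4, 0.19 ± 0.53 for Sgk1, 0.35 ± 0.29 for Fkbp5 and -0.50 ± 0.27 for Zbtb16. On the dimmer Fkbp5 probe it was 0.62 ± 0.43 in knockout. No member's groups lay apart in either direction there, against 2.7% lower and 1.98% higher of all features.

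The effect of IIAEK in knockout minus that in wild type was 0.97 ± 0.30 for Tsc22d3, 1.47 ± 0.49 for Ddit4, 1.28 ± 0.75 for Sgk1 and 0.99 ± 0.41 for Fkbp5. On the dimmer Fkbp5 probe this difference was 1.9 ± 0.6. For the other 5 members it was -0.24 to 0.17. Counts of calls at an adjusted p of 0.05 were 0 of 9 members and 0% of features for the peptide's effect in wild type, its effect in knockout and the difference of both (limma). At an unadjusted p under 0.05 the members numbered 2, 0 and 3, against 3.14%, 1.91% and 1.52% of features. The difference of both also contains the vehicle comparison known when the members were chosen, so nothing is read from these counts.

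Wild-type vehicle stood apart over the 12 arrays for some of these target genes and not for the others. For Tsc22d3, Ddit4 and Sgk1, 3 of 9 members, all wild-type vehicle arrays lay above all 9 others, which held for 141 of 26107 features (0.54%). This count was chosen after the values were seen, and since the members were picked on the same wild-type vehicle arrays it is a description. Among 30 other glucocorticoid-induced genes it held for 1, Angptl4, which encodes an inhibitor of lipoprotein lipase. It held for 1 of 19 receptor chaperones and cofactors (Dnajb1), 1 of 18 immediate early genes (Klf2), 1 of 9 heat shock genes (Bag3), and 0 of the measured genes for hormone synthesis and handling (10), the clock (13) and the integrated stress response (8). The mean level of the heat shock list lay apart in the same way, at 3.14 to 4.06 on the wild-type vehicle arrays and 2.84 to 3.06 on the others.

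The levels of Tsc22d3, Ddit4 and Sgk1 were correlated over the 12 arrays. These genes were singled out for high wild-type vehicle levels on the same arrays, so their correlations are a description and no separate result. Tsc22d3 correlated with Ddit4 at r = 0.91 and with Sgk1 at r = 0.81, and Ddit4 with Sgk1 at r = 0.72. With each group's mean removed, r was 0.75, 0.55 and 0.39. Sgk1 with group means removed was closer to Errfi1 (0.83) and Klf9 (0.76). The 8 named genes most like Tsc22d3 in level over the 12 arrays, members apart, were Tent5a (r = 0.87), Spata1 (0.86), Rhob, Ints6l, Bcl6 and Tle1 (0.85 each), Katnal1 (0.84) and Banp (0.83). Bcl6, a transcriptional repressor of B cells and of liver metabolism, had 2.52, 2.46 and 1.76 in vehicle-treated wild type, 1.94, 1.94 and 1.91 in IIAEK-treated wild type, 1.14, 1.12 and 1.18 in vehicle-treated knockout, and 1.49, 1.41 and 1.0 in IIAEK-treated knockout. Rhob, a small GTPase, had 0.89, 0.81 and 0.98 in vehicle-treated wild type and 0.24 to 0.72 on the 9 other arrays.

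Markers of B cells moved in part with these genes. The list (7 of 10 measured; Fcer2a, Blk and Fcmr did not pass the filter) had a mean level of 0.93, 0.31 and -2.32 on the wild-type vehicle arrays and -2.40 to -1.29 on the other 9. In wild-type vehicle replicate 3, where B cell markers were at -2.32, Tsc22d3 was at 4.25, Ddit4 at 3.92 and Sgk1 at 5.07; the part of B cells in these levels was not tested. The stomach-type markers were high on all 3 wild-type vehicle arrays; on the other 3 arrays where they were high Tsc22d3 was at 3.80, 3.02 and 3.15. With the stomach-type and pancreas marker levels as covariates, the vehicle difference was -1.21 for Tsc22d3, -1.59 for Ddit4, -1.72 for Sgk1, -0.43 for Fkbp5, -0.20 for Klf9 and -0.25 for Errfi1. It moved from -0.58 to -0.37 for Zbtb16, from 0.43 to 0.07 for Hsd11b1 and, with a change of sign, from 0.07 to -0.17 for Nr3c1. The stomach-type level varied little within wild-type vehicle (3.25 to 3.59), and the pancreas level was low only on wild-type vehicle replicate 1. These covariates can therefore hardly be told from the group itself there, and the part of tissue make-up in the vehicle difference was not tested.

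**Figure D4:**
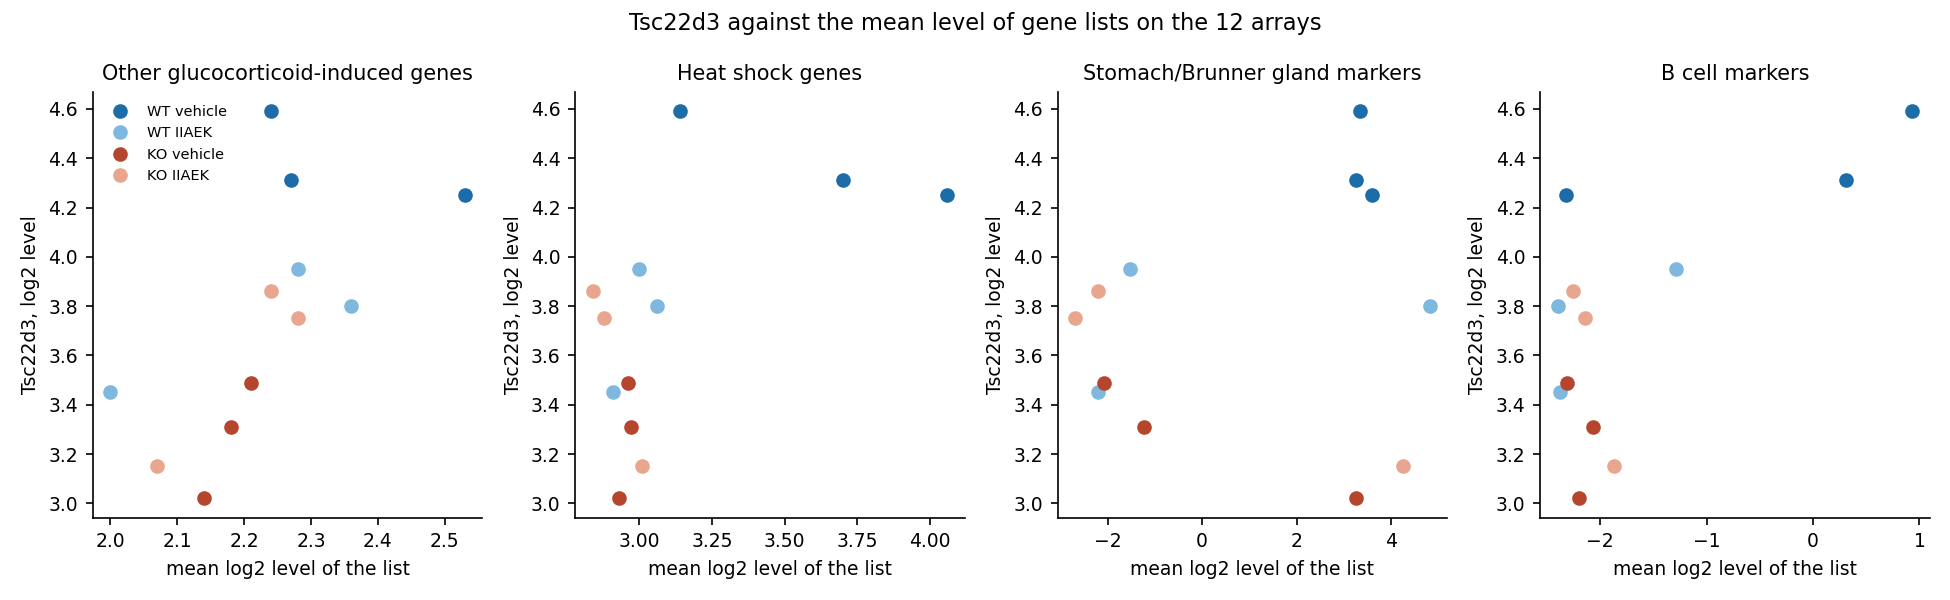
Log2 level of Tsc22d3 (y axes) against the mean log2 level of 4 gene lists (x axes) on the 12 arrays, 1 point per array, coloured by group. The wild-type vehicle arrays lie apart from the others for heat shock genes (3.14 to 4.06 against 2.84 to 3.06), and among them B cell markers run from -2.32 to 0.93.

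The wider set of glucocorticoid-induced genes, 30 of 30 measured, overlapped between wild-type vehicle and the rest. Its mean level was 2.24 to 2.53 in vehicle-treated wild type and 2.0 to 2.36 on the other arrays. Under vehicle, 19 of the 30 were lower and 11 higher in knockout, 0 called in either direction, with a median of -0.09 against 0.03 for all features. The arrays lay apart, lower in knockout, for 6 of the 30 and higher for 0, against 5.87% and 8.5% of all features. Per1, a clock gene with a known response element, was at 3.03, 3.01 and 3.38 in vehicle-treated wild type and 2.34, 2.50 and 2.07 in vehicle-treated knockout, a difference of -0.84. Irs2, an adaptor of insulin signalling, differed by -0.90 (2.43, 1.90 and 2.54 against 1.70, 1.16 and 1.31); the adjusted p of both was 0.993 (limma). Under IIAEK 14 of the 30 were lower and 16 higher, with a median of 0.03. Slc9a3, the apical sodium-hydrogen exchanger, was at 4.18, 4.19 and 4.18 in IIAEK-treated wild type and at 3.64, 3.62 and 3.51 in knockout, a difference of -0.60 (limma, adjusted p = 1). Mt1, a metallothionein, differed by 0.37.

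Among genes for hormone synthesis and handling, 10 of 14 were measured and 0 were called in either comparison of genotypes. The gut makes corticosterone through Cyp11a1 and Cyp11b1, and neither gave a signal well above background on an array. Nr5a2, the nuclear receptor LRH-1 that drives intestinal steroid synthesis, differed by 0.28 under vehicle, and H6pd, which supplies cofactor to Hsd11b1, by 0.17. Under IIAEK, Hsd3b3 differed by 1.68 and Hsd3b2 by 1.51, both steroid dehydrogenases. Wild-type IIAEK replicate 3 decided these values: its level was -6.28 for Hsd3b3 and -6.14 for Hsd3b2, against -2.64 to -0.70 and -2.57 to 0.05 on the other arrays, and its probes there were not well above background.

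Receptor chaperones and cofactors (19 of 19 measured) had 14 lower and 5 higher in knockout under vehicle and 12 lower and 7 higher under IIAEK, with 0 called. Dnajb1, an HSP40 co-chaperone, was at 3.47, 3.45 and 3.76 in vehicle-treated wild type and 2.98 to 3.28 on the 9 other arrays, and Ncoa3, a coactivator, differed by -0.38 under vehicle. Under IIAEK Ncor1, a corepressor, differed by -0.24 and Fkbp4, a co-chaperone of the receptor, by 0.24.

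Heat shock genes (9 of 9 measured) had 8 lower and 1 higher in knockout under vehicle, with a median of -0.33 and 0 called. Groups lay apart, lower in knockout, for 5 of the 9 and higher for 0, against 5.87% and 8.5% of all features. Hspa1b, an inducible HSP70, was at -1.06, 0.67 and 1.74 on the wild-type vehicle arrays and at -2.64 to -0.94 on the others, a vehicle difference of -2.27. Bag3, a co-chaperone of HSP70, differed by -0.51. Under IIAEK 5 heat shock genes were lower and 4 higher, Hspa1b differed by -0.64 and Hspd1, a mitochondrial chaperonin, by 0.23. The part of the heat shock level in the differences of the members was not tested.

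Of the immediate early genes, 18 of 19 measured, 10 were lower and 8 higher in knockout under vehicle and 8 lower and 10 higher under IIAEK, with 0 called. Klf2, a quiescence factor of lymphocytes and endothelium, differed by -1.04 under vehicle, and Atf3, a stress-induced repressor, by 0.81. Under IIAEK, Fosl2 and Jun, subunits of AP-1, differed by -0.48 and -0.42. Clock genes (13 of 15) had 9 lower and 4 higher under vehicle and 6 lower and 7 higher under IIAEK, with 0 called; Hlf differed by -1.25 and Per2 by -0.98 under vehicle, and Npas2 by -1.10 and Cry1 by -0.51 under IIAEK. In Per2 the wild-type vehicle arrays were at 0.26, 0.52 and 2.22, with replicate 3 far above the other arrays of its group. Replicate 3 was also far above in Hlf, at -0.22 against -1.56 on both other arrays of its group. The vehicle-treated knockout arrays were at -2.42, -2.34 and -2.34 in Hlf. Integrated stress response genes (8 of 8) had 3 lower and 5 higher under vehicle and 4 of each under IIAEK, with 0 called. Their member Chac1, a glutathione-degrading enzyme, differed by 0.96 under vehicle and Ddit3, the CHOP factor, by -0.36; under IIAEK Ddit3 differed by -0.25 and Asns, asparagine synthetase, by 0.17.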

How the data were processed

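The deposited scanner files hold 1 colour per array; per the file headers they were made with Feature Extraction 10.7.3.1, whose processed intensity is background-subtracted. The authors' deposited value table holds log2 values of unstated making. They followed the processed intensities on the log2 scale once those were set against the 75th percentile of the array and centred per probe, and served as an alternative. Its column medians were -0.09 to 0.13. The headers name an older build than the RefSeq tables (GRCm38.p6), which were used for names and promoter windows.

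Control spots (3671 of 62976) and outlier-marked spots were left out, which left 56583 of 56605 probes. Spots of a probe were averaged. Accessions named 32978 probes for 22905 genes. The filter kept 32925 probes, those with a signal well above background throughout 1 group or more (3 of 3 arrays), and each gene was read from its brightest probe by mean signal. limma 3.58.1 in R 4.3.3 fitted 1 mean per group to all 12 arrays, with an intensity trend and Benjamini-Hochberg adjustment over 26107 features; tests are two-sided. The median SE of a difference was 0.243, so the number of arrays limits the precision. The fit was tested on simulated data.

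The members and lists were chosen with earlier results of these data known. The genes named were all members with every probe, the 2 genes with the smallest p of each pathway list in each comparison of genotypes, any called gene of a list (there was none), and the 8 most like Tsc22d3 by Pearson r. Other genes were named after their values were seen: Angptl4, and Cyp11a1 and Cyp11b1 for their background signal.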

Additional observations from a re-analysis of the deposited data

How the results depend on the processing

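Across the alternatives the number of members called stayed at 0 in each of the 5 comparisons, except within slide 2, where it was 1 for knockout against wild type under vehicle and 1 under IIAEK, Sgk1 each time. All features called within slide 2 numbered 80 and 14, against 2 and 2 over both slides, and every group there but knockout vehicle has 1 array, so these calls rest on the spread of 1 pair of arrays, moderated over features. In the tested comparison under IIAEK, reversals within slide 1 were Tsc22d3 at 0.10, Sgk1 at 0.53, Klf9 at 0.23 and Errfi1 at 0.11, and within slide 2 Ddit4 at -0.55, Fkbp5 at -0.31 and Hsd11b1 at -0.17; the cause was not tested. Leaving out each array in turn gave -0.29 to 0.07 for Tsc22d3, -0.36 to 0.36 for Ddit4, -0.83 to 0.32 for Sgk1, 0.35 to 0.92 for Fkbp5, -0.23 to 0.12 for Klf9, -0.88 to -0.45 for Zbtb16, -0.40 to 0.08 for Errfi1, -0.49 to 0.12 for Nr3c1 and -0.02 to 0.52 for Hsd11b1. Under vehicle, leaving out each array gave -1.22 to -0.99 for Tsc22d3, -1.71 to -1.24 for Ddit4 and -2.05 to -1.47 for Sgk1. The dimmer probe of a gene, fitted on its own and added after the data were seen, gave -0.81 for Tsc22d3 and -1.70 for Fkbp5 under vehicle. For Nr3c1 it gave -0.14, against 0.07 on the brighter probe, a change of sign. For Zbtb16 it gave -0.98 ± 0.65 (SE) with overlapping groups. That Zbtb16 probe passed the filter only through wild-type vehicle, its highest group, so nothing is read from its difference. The mean of the probes gave -1.01 for Fkbp5. With a replicate block 0 members were called in each comparison. Same-numbered arrays correlated, in their deviations from the group means, at -0.25 to 0.70, with 11 of 18 pairs over 0.1, and 15 of 36 best correlates carried the same number, so the numbers were not taken as pairing.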
